A study of Mus musculus with 25 samples.

Results

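Expression of 10 genes that encode or control the MHC class II antigen presentation pathway was followed through sorted cells of mouse liver. They were taken by matching the Ensembl identifiers of 2 tables of raw gene counts to the symbols H2-Aa, H2-Ab1, H2-Eb1, Cd74, Ciita, H2-DMa, H2-DMb1, H2-Oa, Ctss and Cd86. All 10 were found among the 51912 genes of the immune cell table and 9 among the 18668 genes of the hepatocyte table. H2-Oa was read from the immune cell table alone. Each member found also passed the filter on low counts, which left 14339 hepatocyte and 27759 immune genes for testing.

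The mice were of a C57BL/6J and 129SV background. The hepatocyte libraries, 13 in 5 groups, included wild-type mice given plasmid DNA by hydrodynamic tail vein injection, a rapid high-volume injection that reaches the liver, and collected 1 week later. The plasmid encoded GFP in 2 libraries and IL-6 in 3. The IL-6 STAT3KO group (n = 3) carried floxed Stat3 alleles and received AAV-TBG-Cre 2 weeks and the IL-6 plasmid 1 week before collection. TBG is a promoter active in hepatocytes, so Cre was directed to these cells, and Stat3 in other cells of these livers was not measured here. The DDC group (n = 2) and the DDC STAT3KO group (n = 3) also carried floxed Stat3 and were fed DDC, a diet that injures the bile ducts, for 1 week, with AAV-TBG-GFP or AAV-TBG-Cre given 2 weeks before collection. The immune libraries, 12 in 6 groups of 2 from wild-type mice, were macrophages, T cells, neutrophils, Ly6C-low monocytes and Ly6C-high monocytes after 1 week of DDC diet, and macrophages of mice on normal diet. The labels do not state that replicates were separate animals, so p-values cover only library-to-library spread, possibly of technical origin.

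MHC class II molecules are pairs of an alpha and a beta chain that carry peptides from endosomes to the cell surface, where CD4+ T cells read them. The invariant chain fills the peptide groove on the way, proteases trim it to a short remnant, and H2-DM exchanges that remnant for peptide while H2-O restrains H2-DM. CIITA, the transactivator of the pathway, binds no DNA itself and is recruited by RFX, CREB and NF-Y factors to conserved X and Y boxes in front of these genes. Dendritic cells, B cells and macrophages express the pathway as a rule, and interferon gamma can switch CIITA on in other cells. Hepatocytes are known for little or no class II expression in healthy liver.

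The stretches before the start of the members, where X and Y boxes of class II genes would lie, are shown first. RefSeq promoters of build GRCm38.p6 were available for 6 members, in 7 windows, while H2-Ab1, Cd74, Ciita and Cd86 are named only. Each line is the 110 bases before the start, 5′ to 3′ on the strand of the gene. In the first 2 lines capitals mark an X box part (CNNGNAAC) and the Y box core (GATTGG), and in the third they mark an interferon-stimulated response element (GAAA, any 2 bases, GAAA).

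H2-Aa, chr17:34287824-34287933, reverse strand: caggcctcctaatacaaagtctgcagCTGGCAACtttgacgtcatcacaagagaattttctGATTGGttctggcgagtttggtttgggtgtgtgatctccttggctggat
H2-Eb1, chr17:34305757-34305866, forward strand: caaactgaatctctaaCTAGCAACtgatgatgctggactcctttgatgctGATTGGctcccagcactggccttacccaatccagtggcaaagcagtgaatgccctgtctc
Ctss, chr3:95526676-95526785, forward strand: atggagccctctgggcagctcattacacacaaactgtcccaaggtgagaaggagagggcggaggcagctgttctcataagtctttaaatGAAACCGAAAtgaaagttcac

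The X box part began 84 bases before the start in H2-Aa and 94 in H2-Eb1, and 27 and 26 bases separated it from the Y box core. H2-DMb1 held CTAGTAAC followed 27 bases later by GATTGG, and H2-Oa held CCAGCAAC followed 27 bases later by GATTGG. GENCODE places exon in these stretches before the RefSeq start, over all 110 bases in H2-DMb1 and 39 in H2-Oa. Whether the H2-DMb1 pair lies before the start thus depends on the annotation. Searched on both strands over the 250 bases before each start, the X box part occurred in 33.3% and the Y box core in 14.6% of 32851 RefSeq promoter windows. The X box part followed by the Y box core at 15 to 40 bases occurred in 0.304% of windows, 100 in all, and in 4 of the 6 members. H2-DMa held both letter strings but not in this order and spacing, and Ctss held neither. The interferon-stimulated response element occurred in 2.98% of windows and, of the 6 members, in Ctss. The letters were chosen with the members' sequences in view, the last overlaps no X or Y box, and a match describes the letters and is not a measured binding site.

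Total counts per library ran from 13625040 to 18428988 in hepatocytes and from 3817794 to 12945663 in immune cells. Levels are CPM, the usual read count scaled to a common library size, with sizes adjusted by the trimmed mean of M values, and a gene is called when its Benjamini-Hochberg adjusted p from edgeR's quasi-likelihood test is under 0.05. Stat3, the targeted gene, read 340 to 424 CPM in the IL-6 group against 98.8 and 109 CPM in the GFP group, 96.0 to 116 CPM in IL-6 STAT3KO, 112 and 150.0 CPM in DDC and 56.2 to 87.2 CPM in DDC STAT3KO. Because reads were counted over all of Stat3 and the floxed exons are not given, these levels do not measure the deletion. IL-6 replicate 3 stood apart, with 17490 CPM summed over 7 hepatocyte markers against 48180 or more in the other hepatocyte libraries and 7795 counts of an EGFP transgene, where replicates 1 and 2 had 117 and 93. The GFP plasmid libraries held 34 and 35 EGFP counts and the IL-6 STAT3KO libraries 9 to 23. The DDC libraries, given AAV-TBG-GFP, held 22357 and 27571. The source of the EGFP counts in IL-6 replicate 3 was not tested. DDC STAT3KO replicate 3 had low macrophage markers, given with the results. The T-labelled libraries held 300 and 314 CPM over 8 T cell markers, with Cd3e among them at 0.241 and 1.23 CPM. No other immune library passed 112 CPM on that list, reached in DDC macrophages. The T-labelled libraries also held 15250 and 23630 CPM over 14 macrophage markers. Ly6C-low monocytes held 16820 and 36360 CPM on that second list, and DDC macrophages 82170 and 74730 CPM. Because markers of both cell types were present, these libraries are called T-labelled.

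The class II chains were measured through H2-Aa, the alpha chain, and H2-Ab1, the beta chain, of the I-A molecule, and through H2-Eb1, the I-E beta chain. H2-Aa (ENSMUSG00000036594, chromosome 17, 34282744 to 34287823, reverse strand, GRCm38) stood at 2.30 and 4.401 CPM in the GFP group and 5.68, 3.76 and 1.31 CPM with the IL-6 plasmid. The 3 IL-6 STAT3KO libraries held 284, 188 and 576 CPM of H2-Aa. With DDC diet H2-Aa stood at 11.5 and 26.9 CPM, and in DDC STAT3KO at 12.1, 37.3 and 4.71 CPM. The lowest IL-6 STAT3KO library thus lay above each of the other 10 hepatocyte libraries, while the remaining groups overlapped their neighbours.

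H2-Ab1 (chromosome 17, 34257689 to 34269419, forward strand) stood at 216, 93.4 and 326 CPM in IL-6 STAT3KO, against 8.60, 4.87 and 1.43 CPM with the IL-6 plasmid and 2.94 and 5.09 CPM with the GFP plasmid. It read 11.2 and 27.2 CPM in DDC and 18.2, 33.4 and 3.14 CPM in DDC STAT3KO. H2-Eb1 (chromosome 17, 34305867 to 34316674, forward strand) stood at 189, 91.0 and 236 CPM in IL-6 STAT3KO, 5.92, 3.45 and 0.561 CPM with the IL-6 plasmid and 2.88 and 3.99 CPM with the GFP plasmid. Its DDC libraries held 11.2 and 21.3 CPM and its DDC STAT3KO libraries 10.3, 29.4 and 3.07 CPM. For both beta chains the 3 IL-6 STAT3KO libraries were the highest of the 13, and replicate 2 was the lowest of those 3.

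Cd74 encodes the invariant chain (chromosome 18, 60803848 to 60812652, forward strand). It read 5.25 and 11.6 CPM in the GFP group, 24.5, 12.2 and 9.04 CPM with the IL-6 plasmid and 1221, 830.2 and 1813 CPM in IL-6 STAT3KO. DDC libraries held 27.4 and 56.8 CPM and DDC STAT3KO libraries 34.3, 79.5 and 7.63 CPM. Per length Cd74 had the highest mean of the members in 4 of the 5 hepatocyte groups. With the IL-6 plasmid Ctss, at 11.0 ± 4.83 CPM per kilobase of exon, and Cd74, at 9.09 ± 4.88, did not differ beyond their spread (SD, n = 3). In IL-6 STAT3KO Cd74 averaged 767 ± 295 CPM per kilobase of exon (SD, n = 3), against 92.0 ± 53.2 for H2-Aa, 88.6 ± 38.1 for H2-Eb1 and 82.5 ± 45.2 for H2-Ab1, and the 3 chains did not differ beyond their spread.

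Ciita (chromosome 16, 10480059 to 10528418, forward strand) had few counts outside the IL-6 STAT3KO group, from 0 to 57 per library. It had 1 and 6 counts in the GFP libraries, or 0.0640 and 0.412 CPM, against 1.34, 0.616 and 0.187 CPM with the IL-6 plasmid. The IL-6 STAT3KO libraries held 38.4, 10.2 and 31.3 CPM, from 621, 164 and 537 counts. DDC libraries held 1.01 and 2.32 CPM. DDC STAT3KO libraries held 0.968 and 2.59 CPM in replicates 1 and 2, and 0 counts in replicate 3, which allows up to 0.224 CPM (3 counts, counting error only). As with the chains, the IL-6 STAT3KO libraries lay above the rest and replicate 2 was the lowest of them.

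H2-DMa and H2-DMb1 (chromosome 17, 34119541 to 34139101 and 34153072 to 34160230, forward strand) encode the 2 chains of H2-DM. H2-DMa was at 0.320 and 0.619 CPM in the GFP group, 1.82, 1.48 and 0.499 CPM with the IL-6 plasmid and 45.7, 28.1 and 63.0 CPM in IL-6 STAT3KO. It read 0.848 and 4.36 CPM in DDC and 1.26, 3.95 and 0.374 CPM in DDC STAT3KO. H2-DMb1 stood at 0.512 and 0.619 CPM, then 1.89, 0.986 and 0.312 CPM, then 22.9, 13.7 and 29.4 CPM over the same first 3 groups, and at 2.07 and 4.41 CPM in DDC and 1.98, 4.63 and 1.12 CPM in DDC STAT3KO. Per kilobase the chains of H2-DM were close in IL-6 STAT3KO, at 13.2 ± 5.06 for H2-DMa and 13.1 ± 4.70 for H2-DMb1 (SD, n = 3). H2-DMb1 has a close paralog, H2-DMb2, and how reads were divided between them is not given in the sources used here.

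Ctss and Cd86 followed another order. Ctss (chromosome 3, 95526786 to 95556403, forward strand) encodes cathepsin S, the protease that makes the last cuts in the invariant chain. It read 1.66 and 3.51 CPM in the GFP group, 18.5, 19.0 and 7.36 CPM with the IL-6 plasmid and 8.85, 31.4 and 15.7 CPM in IL-6 STAT3KO. DDC libraries held 20.2 and 32.0 CPM of Ctss and DDC STAT3KO libraries 23.9, 32.5 and 3.37 CPM. The GFP libraries were the lowest apart from DDC STAT3KO replicate 3, which fell between them, and the other 4 groups overlapped.

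Cd86 (chromosome 16, 36603869 to 36666081, reverse strand) encodes a co-stimulatory ligand that T cells read through CD28. It stayed low in every hepatocyte library, at 0.320 and 0.206 CPM with the GFP plasmid, 1.11, 0.616 and 0.312 CPM with the IL-6 plasmid and 0.619, 1.55 and 1.40 CPM in IL-6 STAT3KO. The highest values were 2.17 and 3.34 CPM in DDC and 2.76 and 2.50 CPM in DDC STAT3KO replicates 1 and 2, with 0.898 CPM in replicate 3. Counts of Cd86 were 3 to 75 per library, so its order among groups is imprecise.

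**Figure D1:**
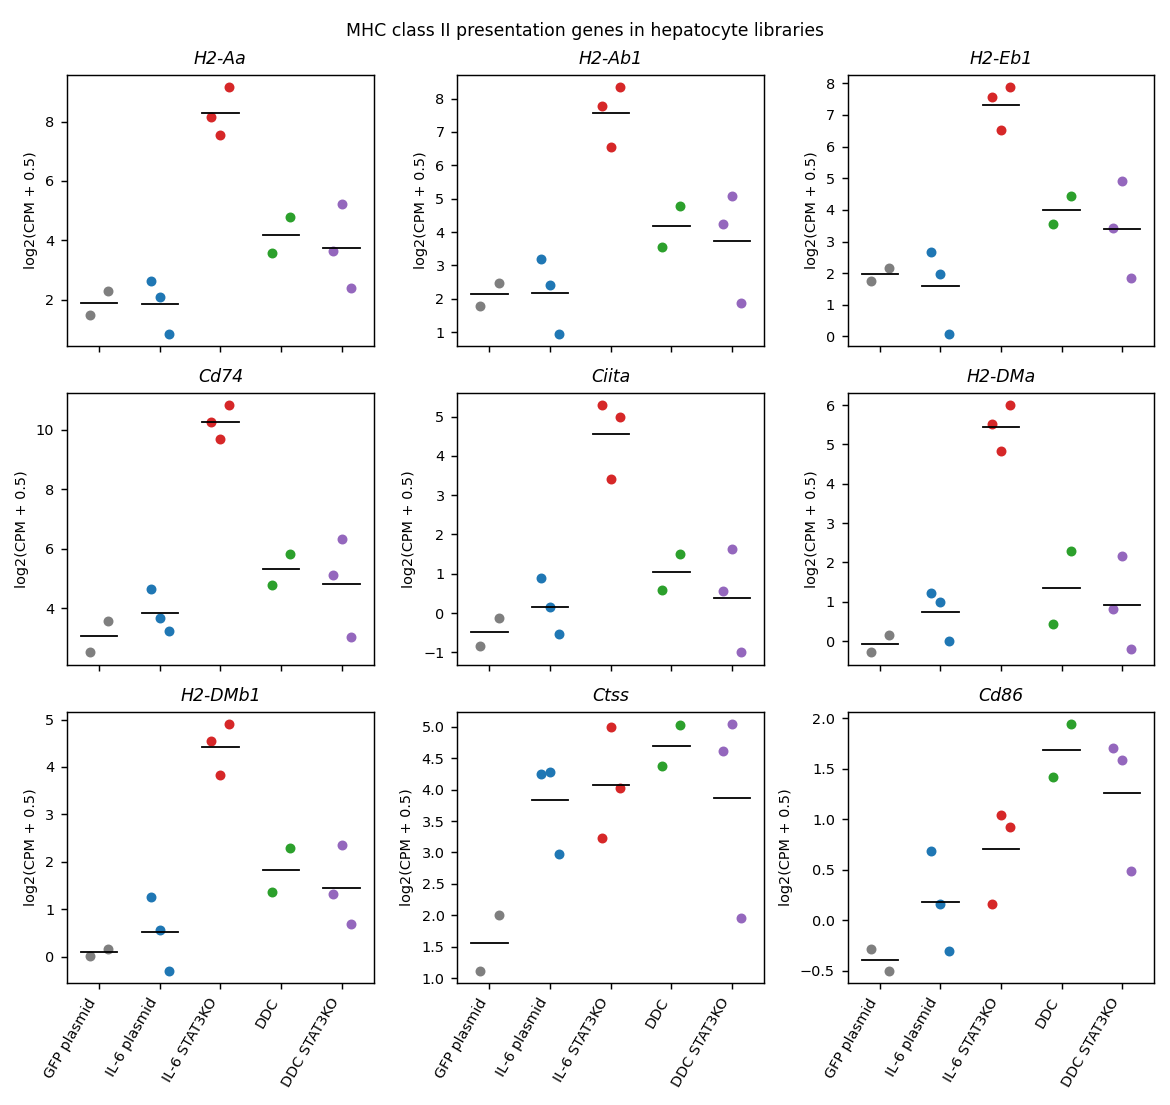
Level of 9 class II presentation genes in 13 hepatocyte libraries, as log2(CPM + 0.5) on the y axis, by group on the x axis. Points are libraries and bars are group means. The 3 IL-6 STAT3KO libraries stand above all others for 7 genes and lie among the IL-6, DDC and DDC STAT3KO libraries for Ctss, while the DDC libraries are the higher ones for Cd86.

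The comparison of IL-6 STAT3KO with IL-6 hepatocytes asks how the IL-6 response differed with and without hepatocyte STAT3. The 7 genes H2-Aa, H2-Ab1, H2-Eb1, Cd74, Ciita, H2-DMa and H2-DMb1 rose and none fell, so 7 of 9 members were called higher against 13% of the 14339 genes tested. The median log2 fold change was 5.25 over the 9 members and 0.000 over all genes. H2-Aa rose by 6.62 ± 0.87 (log2 ± SE, 98.4-fold, adjusted p = 0.000211), Cd74 by 6.40 ± 0.83 (84.6-fold, adjusted p = 0.000199), H2-Eb1 by 5.72 ± 0.88 and H2-Ab1 by 5.43 ± 0.88. Ciita rose by 5.25 ± 1.00 (adjusted p = 0.00249), H2-DMa by 5.18 ± 0.80 and H2-DMb1 by 4.39 ± 0.65. For these 7 genes the 3 IL-6 STAT3KO libraries lay above all 3 IL-6 libraries, as did 22% of all genes.

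Ctss differed by 0.32 ± 0.67 (95% interval -1.13 to 1.77, adjusted p = 0.764) and Cd86 by 0.83 ± 0.58 (95% interval -0.43 to 2.09, adjusted p = 0.329), and their libraries overlapped. The same number of members, 7, was called under each alternative and with any 1 of the 6 libraries left out. The groups also differ in genotype and in the AAV that only one of them received, which cannot be told apart from the loss of STAT3. A change in the number of cells of a type and a change in RNA per cell cannot be told apart in these bulk libraries either.

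**Figure D2:**
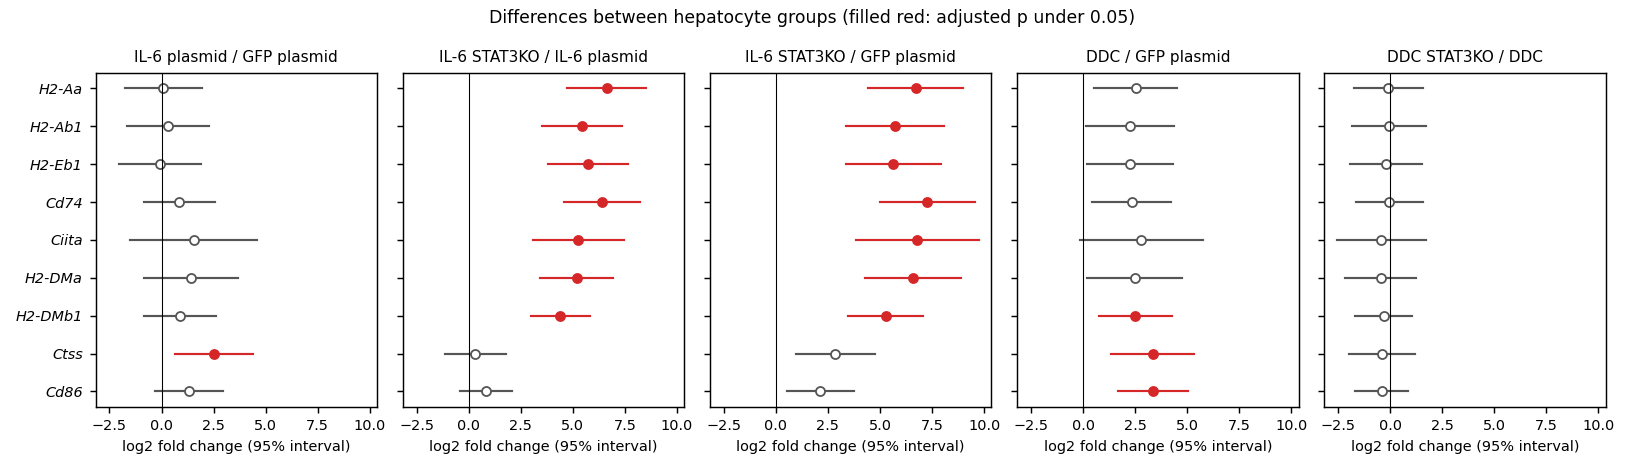
Log2 fold change with its 95% interval (x axis) of 9 class II presentation genes (rows) in 5 hepatocyte comparisons (panels), with filled red points where the adjusted p from edgeR is under 0.05. H2-Aa to H2-DMb1 lie between 4.39 and 7.26 in both panels with IL-6 STAT3KO, and all 9 genes lie between -0.45 and -0.05 in DDC STAT3KO over DDC.

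Counts within a library do not depend on scaling, and they set Ctss apart from Cd74. In IL-6 STAT3KO there were 7.25, 37.8 and 8.69 Ctss counts per 1000 Cd74 counts. In the other 10 hepatocyte libraries the ratio ran from 304 to 1556, and in the 12 immune libraries from 89.5 to 423. Cd86 showed the same order, with 0.507 to 1.87 counts per 1000 Cd74 counts in IL-6 STAT3KO, 17.9 to 118 in the other hepatocyte libraries and 3.98 to 33.5 in immune cells. H2-DMa stayed nearer to Cd74, with 33.9 to 37.4 counts per 1000 in IL-6 STAT3KO, 30.9 to 121 in the other hepatocyte libraries and 42.2 to 172 in immune cells. The ratio of Ctss to Cd74 in each IL-6 STAT3KO library thus lay below that in each of the other 22 libraries. The ratio of H2-DMa to Cd74 lay below that in each of the 12 immune libraries too, but within the range of the other hepatocyte libraries.

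**Figure D3:**
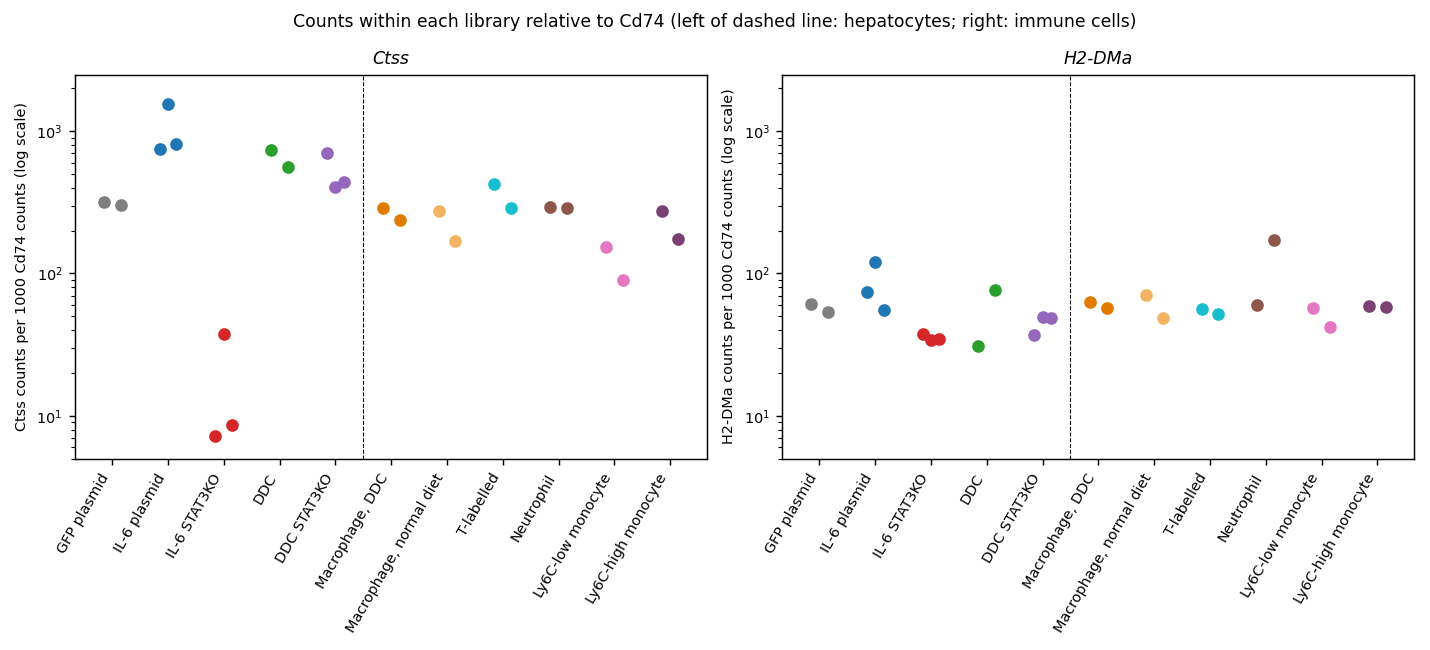
Counts of Ctss (left) and H2-DMa (right) per 1000 Cd74 counts of the same library, on a log y axis, for 25 libraries by group, with hepatocytes left of the dashed line. The 3 IL-6 STAT3KO points lie at 7.25 to 37.8 for Ctss, below all 22 other libraries, and at 33.9 to 37.4 for H2-DMa, within the range of the others.

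Markers of cells that carry class II molecules were read in the same libraries. Summed over 14 macrophage and Kupffer cell markers, all found in the table, the GFP group held 54.8 and 70.1 CPM, the IL-6 group 120.0 to 225 CPM, and the others 156 to 391 CPM in IL-6 STAT3KO, 401 and 668 CPM in DDC and 92.5 to 624 CPM in DDC STAT3KO. None of the 14 was called between the IL-6 groups by edgeR, with log2 differences of -0.25 to 0.85 and a median of 0.45, and no library had any of them at 0. In the DDC libraries these sums stood beside 27.4 and 56.8 CPM of Cd74. In IL-6 STAT3KO the macrophage sum and Cd74 were 156 and 1221 CPM in replicate 1, 391 and 830.2 CPM in replicate 2 and 254 and 1813 CPM in replicate 3. The part of macrophages in the Cd74 level was not tested.

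Over 9 dendritic cell markers the sum was 7.12 to 10.1 CPM in IL-6 STAT3KO, 3.71 to 5.30 CPM in the IL-6 group and 10.8 and 16.6 CPM in DDC. Of the 6 tested between these IL-6 groups only Siglech, a plasmacytoid dendritic cell lectin, was called, at 0.495 to 0.745 CPM against 0 counts in all 3 IL-6 libraries, where 3 counts would be 0.185 to 0.237 CPM. Of 7 B cell markers, Cd79b and Cd22 were in the table, with a sum of 0.291 to 0.495 CPM in IL-6 STAT3KO and Cd79b at 0 counts in 2 of its 3 libraries. Of 8 T cell markers 4 were in the table and 2 passed the filter. Cd4, which dendritic cells and some macrophages can also carry, stood at 2.91 to 3.85 CPM in IL-6 STAT3KO against 0.308 to 0.935 CPM with the IL-6 plasmid (2.36 ± 0.76, adjusted p = 0.0376). Cd28, the receptor for CD86, went the other way, from 10.7 to 36.8 CPM with the IL-6 plasmid to 0.0583 to 0.248 CPM in IL-6 STAT3KO. Cholangiocyte markers fell too, from 2203 to 10750 CPM summed over 4 genes with the IL-6 plasmid to 6.87 to 48.9 CPM, and of the remaining lists 2 monocyte markers (Ace and Chil3) and 1 neutrophil marker (S100a9) fell and 3 of 7 hepatocyte markers (Ass1, Ttr and Cps1) rose. The part of any of these cells in the class II levels was not tested.

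**Figure D4:**
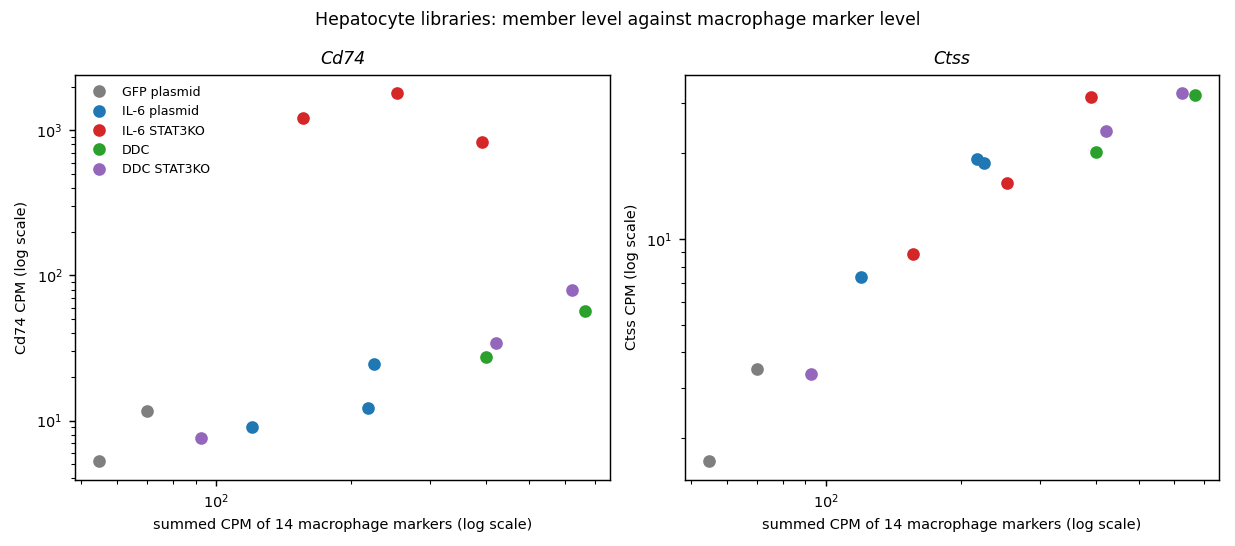
Level of Cd74 (left) and Ctss (right) in CPM against the summed CPM of 14 macrophage markers, both axes on a log scale, for 13 hepatocyte libraries coloured by group. Ctss runs from 1.66 CPM at the lowest marker sum, 54.8, to 32.0 CPM at the highest, 668, while the 3 IL-6 STAT3KO points for Cd74, at 830.2 to 1813 CPM, stand above the other 10, which do not pass 79.5 CPM.

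IL-6 STAT3KO hepatocytes were also set against the GFP plasmid, which shares no IL-6 library. These groups differ in plasmid, in genotype and in the AAV that only IL-6 STAT3KO received, and these cannot be told apart. The GFP libraries serve as control in 3 of the comparisons, so these are not independent of each other. The same 7 members were called higher, against 2.26% of all genes. Cd74 was higher by 7.26 ± 1.05 (153-fold, adjusted p = 0.00246), Ciita by 6.79 ± 1.35 on 7 counts in the GFP libraries (adjusted p = 0.0186), H2-Aa by 6.70 ± 1.05, H2-DMa by 6.59 ± 1.07, H2-Ab1 by 5.72 ± 1.07, H2-Eb1 by 5.65 ± 1.05 and H2-DMb1 by 5.27 ± 0.83. Ctss (2.85 ± 0.87, adjusted p = 0.102) and Cd86 (2.14 ± 0.74, adjusted p = 0.139) were not called, although for all 9 members the 3 IL-6 STAT3KO libraries lay above both GFP libraries, as did 22.2% of all genes. Of the 14 macrophage markers 0 were called beside them (median 2.34), or 10 without IL-6 replicate 3 and DDC STAT3KO replicate 3. Ctss was called with DESeq2 (adjusted p = 0.00354), with the replicate number as a block (adjusted p = 0.0269) and without those 2 libraries (adjusted p = 0.0105), where Cd86 was called too (adjusted p = 0.0493), so that 8, 8 and 9 members were called. The 7 calls need both GFP libraries: without GFP replicate 1 none of the 7 was called (adjusted p = 0.0671 to 0.219) and without GFP replicate 2 only Cd74 was, with log2 fold changes of 5.14 to 8.56 for the 7 in those fits, where the lone GFP library is assumed to vary like the other groups.

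No class II chain was called with the IL-6 plasmid in wild-type mice. Against the GFP plasmid H2-Aa differed by 0.08 ± 0.86, H2-Ab1 by 0.29 ± 0.91, H2-Eb1 by -0.08 ± 0.91 and Cd74 by 0.86 ± 0.78, with adjusted p from edgeR of 0.451 to 0.963. The 95% interval for Cd74, -0.84 to 2.56, leaves room for a change of either sign. Ciita (1.54 ± 1.39), H2-DMa (1.41 ± 1.04), H2-DMb1 (0.87 ± 0.80) and Cd86 (1.31 ± 0.75) were not called. Ctss was the only member to rise, by 2.53 ± 0.86 (adjusted p = 0.0484), where 13.7% of all genes were called higher and 12.2% lower. That call was lost on leaving out either GFP library or IL-6 replicate 1 or 2 (adjusted p = 0.0984 to 0.261), and 4 of 14 macrophage markers rose with it, or 11 of 14 without IL-6 replicate 3 and DDC STAT3KO replicate 3. The 4 were C1qb, Marco, Vsig4 and Cd5l. Markers of other myeloid cells rose as well, 5 of 9 for monocytes, led by Ace and Chil3, and 2 of 3 for neutrophils, S100a8 and S100a9. The part of these cells in the rise of Ctss was not tested.

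DDC hepatocytes were compared with the GFP plasmid group, from which they differ in genotype, AAV and plasmid injection as well as diet, and these cannot be told apart. Ctss rose by 3.34 ± 0.92 (10.1-fold, adjusted p = 0.0271), Cd86 by 3.35 ± 0.77 (10.2-fold, adjusted p = 0.0136) and H2-DMb1 by 2.51 ± 0.81 (adjusted p = 0.0486), so 3 of 9 members were called higher against 10.4% of all genes, with 8.29% called lower. H2-Aa (2.52 ± 0.91, adjusted p = 0.0724), Cd74 (2.33 ± 0.86, adjusted p = 0.0773), H2-DMa (2.48), H2-Ab1 (2.26), H2-Eb1 (2.25) and Ciita (2.80, adjusted p = 0.164) missed the threshold. Both DDC libraries lay above both GFP libraries for all 9 members, as for 36.5% of all genes, and 12 of the 14 macrophage markers were called higher in the same comparison, with a median of 3.27. The first 4 by adjusted p were Marco, Cd68, C1qb and Cd5l. Of other cells that can carry class II, 2 of 6 dendritic cell markers (Itgax and Siglech) and 3 of 9 monocyte markers (Treml4, Cx3cr1 and Ccr2) were called higher, the latter 7 of 9 without IL-6 replicate 3 and DDC STAT3KO replicate 3. The part of these cells in the median of 2.51 over the members was not tested.

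No member was called without GFP replicate 1, GFP replicate 2 or DDC replicate 2, and 1, Cd86, was called without DDC replicate 1. The call of H2-DMb1 was lost with the replicate number as a block (adjusted p = 0.0576) and without the filter on low counts (adjusted p = 0.052), leaving 2 members. DESeq2 called 6 members, adding H2-Aa, Cd74 and H2-DMa, and 7 were called without IL-6 replicate 3 and DDC STAT3KO replicate 3.

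Deletion of Stat3 under DDC diet left no member called, in a comparison where both arms carried floxed alleles and differed in the AAV cargo. The members differed by -0.45 to -0.05, with intervals such as -1.66 to 1.55 for Cd74 and -2.56 to 1.70 for Ciita. Of all genes 0% were called by edgeR, with 803 genes and 0 members at an unadjusted p under 0.05, and DESeq2 called 15 genes and 0 members. DDC STAT3KO replicate 3 was the lowest library of the group for all 9 members, and its macrophage marker sum was 92.5 CPM against 422 and 624 CPM in replicates 1 and 2. Without it and IL-6 replicate 3 the difference was 0.44 for Cd74, 0.43 for H2-Ab1 and 0.37 for H2-Aa, again with no call.

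The difference between these STAT3 contrasts was tested as an interaction, (IL-6 STAT3KO minus IL-6) minus (DDC STAT3KO minus DDC). Only under DDC did both arms carry floxed alleles and receive an AAV, and these differences cannot be told apart from the injury model. There were 7 members called higher, against 4.2% of all genes called higher and 4.08% lower. The interaction was 6.70 ± 1.09 for H2-Aa (adjusted p = 0.00332), 6.46 ± 1.04 for Cd74 (adjusted p = 0.00326), 5.91 ± 1.13 for H2-Eb1, 5.68 ± 1.36 for Ciita (adjusted p = 0.0248), 5.63 ± 1.09 for H2-DMa, 5.49 ± 1.14 for H2-Ab1 and 4.70 ± 0.88 for H2-DMb1. Ctss (0.70 ± 0.99, adjusted p = 0.72) and Cd86 (1.24 ± 0.82, adjusted p = 0.394) were not called. Without DDC replicate 2, 4 members were called, and H2-Ab1, Ciita and H2-DMa were not.

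Other genes of the pathway were read beside the 7 members. Of 10 further class II genes tested, 1 rose in IL-6 STAT3KO against IL-6, near the share of all genes called higher, 13%. It was Cd83, a protein of mature antigen-presenting cells (2.73 ± 0.71). Against it 4 genes fell, among 13.4% of all genes called lower. Those were Lgmn, a lysosomal protease (-2.88 ± 0.41), Ctsl, cathepsin L (-1.08 ± 0.20), and the co-stimulatory genes Cd40 (-2.99 ± 0.84) and Icosl (-2.23 ± 0.68). All 4 had risen with the IL-6 plasmid, for example Lgmn from 35.6 and 37.0 CPM to 315 to 378 CPM (3.27 ± 0.50, adjusted p = 0.00073), and Lgmn read 34.3 to 67.4 CPM in IL-6 STAT3KO. The list's median was -0.39. Without IL-6 replicate 3 and DDC STAT3KO replicate 3, 2 of the 10 rose and 4 fell. In IL-6 STAT3KO against GFP 0 of the 10 were called, where 2.26% of all genes were called higher. Without the same libraries 3 of the 10 rose there. In DDC against GFP 4 of the 10 rose, where 10.4% of all genes were called higher. They were Icosl, Lgmn, Cd83 and March1, a ubiquitin ligase that removes class II molecules from the surface.

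No partner that recruits CIITA to class II promoters passed the test. None of Rfx5, Rfxap, Rfxank, Nfya, Nfyb, Nfyc and Creb1 was called in any of the 11 comparisons. In IL-6 STAT3KO against IL-6 the smallest p was that of Nfyc (-0.28 ± 0.18, adjusted p = 0.272 from edgeR), then of Nfya (-0.37 ± 0.24, adjusted p = 0.294), and the list's differences ran from -0.37 to 0.28. Rfx5 stood at 7.39 to 9.53 CPM in IL-6 STAT3KO, 4.81 to 9.23 CPM in the IL-6 group and 4.06 and 8.06 CPM with the GFP plasmid.

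Genes of the interferon gamma response were higher in the same libraries as the class II genes. Of 20 tested, 14 rose and 2 fell when IL-6 STAT3KO was set against IL-6, with a median of 3.50 (15 and 2 without IL-6 replicate 3 and DDC STAT3KO replicate 3). Of all genes 13% were called higher and 13.4% lower there. Igtp, an immunity-related GTPase, rose by 5.49 ± 0.33 (adjusted p = 1.84e-06), and Tgtp2 (9.34 ± 0.61), Gbp7 (4.64 ± 0.32) and Tgtp1 (7.56 ± 0.55) rose too, the Tgtp genes being close paralogs whose reads may be divided between them. Irf1, which acts on Ciita, stood at 54.1 to 127 CPM in IL-6 STAT3KO, 17.9 to 26.9 CPM in the IL-6 group and 12.4 and 14.6 CPM in the GFP group. The genes that fell were the receptor chains Ifngr1 (-0.83 ± 0.24) and Ifngr2 (-0.70 ± 0.19).

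In IL-6 STAT3KO against GFP 15 of the 20 rose, where 2.26% of all genes were called higher. Among them were Tgtp1 (9.49 ± 0.74), Igtp (4.76 ± 0.38) and Tgtp2 (9.03 ± 0.72), each with adjusted p = 7.81e-05. With the IL-6 plasmid alone 5 of the 20 rose and none fell, where 13.7% of all genes were called higher and 12.2% lower. The 5 were Socs1, an inhibitor of JAK kinases (6.61 ± 0.69), Ifngr2, Irf8, Ifngr1 and Tgtp1. In DDC against GFP Gbp2 (3.44 ± 0.56), Ifngr1, Ifngr2, Irf8 and Cxcl10 rose and Igtp fell (-1.24 ± 0.34). Of all genes 10.4% were called higher and 8.29% lower in that comparison. None was called in DDC STAT3KO against DDC, and 14 were called higher in the interaction, where 4.2% of all genes were.

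Class I presentation moved less far. Of 14 tested genes, 9 rose and 2 fell in IL-6 STAT3KO against IL-6, with a median of 1.36. Among all genes 13% were called higher and 13.4% lower. B2m, the light chain of class I, rose from 526 to 970 CPM with the IL-6 plasmid to 2423 to 3752 CPM (1.97 ± 0.27). The immunoproteasome subunit Psmb9 (2.82 ± 0.39), the peptide transporter Tap1 (2.01 ± 0.30) and the heavy chain H2-K1 (1.70 ± 0.27) rose with it. Against GFP 9 rose and none fell, where 2.26% of all genes were called higher. Those with the smallest adjusted p were Tap1 (3.50 ± 0.38), H2-D1 (2.42 ± 0.29), Psmb9 (3.54 ± 0.48) and Psmb10 (1.86 ± 0.27). With the IL-6 plasmid Calr, Tap1, H2-D1 and Tapbp rose and B2m fell (-0.97 ± 0.28), beside 13.7% of all genes called higher and 12.2% lower. In DDC 1 gene rose, Tapbp, a chaperone of class I (1.28 ± 0.39), where 10.4% of all genes were called higher. In the interaction 7 were called higher, led by Psmb9 (2.84 ± 0.56), and Calr lower, against 4.2% and 4.08% of all genes. Without IL-6 replicate 3 and DDC STAT3KO replicate 3 the counts were 8 higher and 0 lower, so the call of Calr was lost.

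Across the 13 hepatocyte libraries the genes whose pattern was most like the mean of H2-Aa, H2-Ab1, H2-Eb1 and Cd74 were Oasl2 (Pearson r = 0.971), Trim30a (0.967), Samhd1 (0.965), Gbp3 (0.940) and Irf7 (0.939), among 9188 genes of at least 5 CPM. Gbp3 ran from 1.18 to 183 CPM and Irf7 from 7.50 to 222 CPM. Of the members outside that mean, H2-DMb1 (0.993), Ciita (0.976) and H2-DMa (0.971) followed it and Ctss (0.472) and Cd86 (0.401) did so less. These values are on log2(CPM + 0.5), the libraries share groups and may share batches, and the 3 IL-6 STAT3KO libraries set much of each r.

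In sorted immune cells all 10 members were detected in every library. Ly6C-low monocytes held the most H2-Ab1, at 27400 and 56070 CPM, followed by Ly6C-high monocytes at 37340 and 22600 CPM, DDC macrophages at 10120 and 18460 CPM, macrophages on normal diet at 7256 and 11150 CPM, T-labelled cells at 6526 and 10280 CPM and neutrophils at 4321 and 1452 CPM. The monocyte groups overlapped each other and lay above the rest, neutrophils lay below the rest, and the groups between overlapped. Cd74 kept the same order, at 20400 and 48830, 36370 and 22780, 13730 and 19760, 6196 and 14840, 5289 and 7869, and 3837 and 1162 CPM. H2-Aa ran from 637 CPM in a neutrophil library to 24400 CPM in a Ly6C-low monocyte library, and H2-Eb1 from 683 to 20990 CPM. Over 10 dendritic cell markers Ly6C-low monocytes held 623 and 862 CPM, Ly6C-high monocytes 218 and 211 CPM and neutrophils 777 and 330 CPM. On the same list T-labelled cells held 390 and 367 CPM, DDC macrophages 279 and 284 CPM and macrophages on normal diet 128 and 151 CPM. The part of dendritic cells in the class II levels of these groups was not tested.

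Ciita separated the monocytes, at 580 and 438 CPM in Ly6C-low and 284 and 325 CPM in Ly6C-high cells. It stood at 222 and 144 CPM in T-labelled cells, 143 and 125 CPM in DDC macrophages, 47.0 and 90.9 CPM in macrophages on normal diet and 28.7 and 32.0 CPM in neutrophils, and no neighbouring groups in this order overlapped. H2-DMa ran from 200.4 to 2135 CPM and H2-DMb1 from 48.0 to 2065 CPM, both with the highest means in the monocytes. For H2-DMb1 the Ly6C-low monocytes, at 1217 and 2065 CPM, overlapped the DDC macrophages, at 981 and 1296 CPM. H2-Oa, the alpha chain of the H2-DM inhibitor H2-O (chromosome 17, 34092340 to 34095234, forward strand), reached 42.5 and 123 CPM in Ly6C-low monocytes and 15.4 and 12.02 CPM in Ly6C-high monocytes. It was 13.4 and 5.33 CPM in DDC macrophages and 1.41 and 1.06 CPM in macrophages on normal diet, the lowest of the 6 groups.

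Ctss stood at 9996 and 3998 CPM in Ly6C-high monocytes, 3979 and 4663 CPM in DDC macrophages, 3154 and 4370 CPM in Ly6C-low monocytes and 1132 and 337 CPM in neutrophils. Cd86 was the 1 member highest in DDC macrophages, at 313 and 358 CPM, against 185 and 164 CPM in Ly6C-high and 133 and 194 CPM in Ly6C-low monocytes. Neutrophils had 90.3 and 15.6 CPM of Cd86. Per kilobase Cd74 was the most abundant member in each of the 6 immune groups, with a mean of 20620 ± 11970 CPM per kilobase in Ly6C-low monocytes (SD, n = 2) against 16250 ± 7894 for H2-Ab1, which did not differ beyond that spread.

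**Figure D5:**
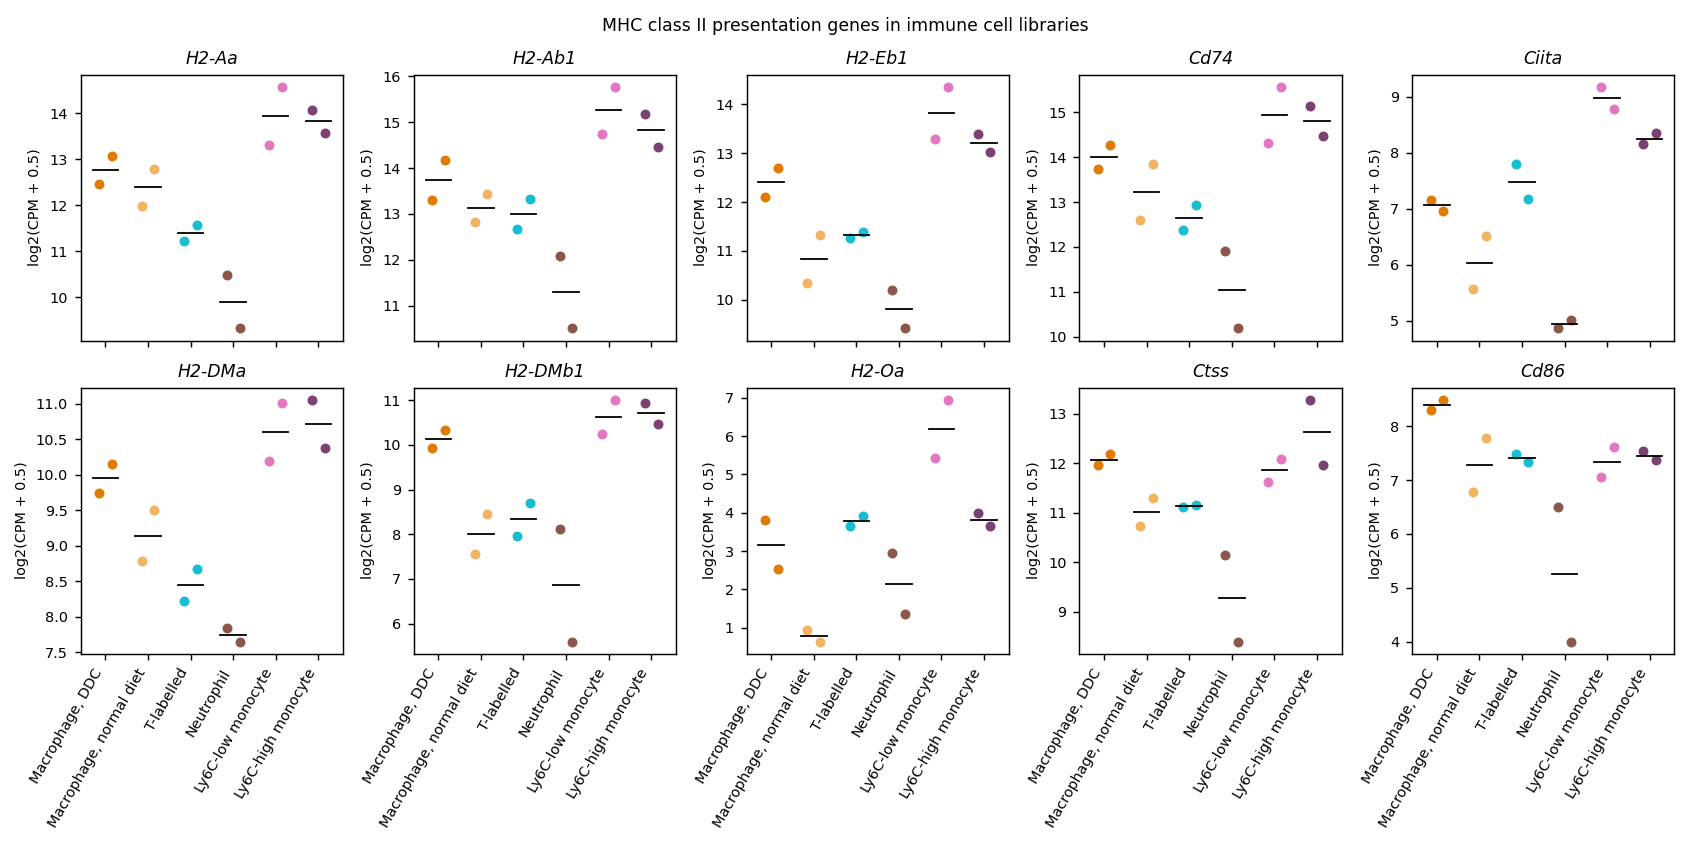
Level of 10 class II presentation genes in 12 immune libraries, as log2(CPM + 0.5) on the y axis, by group on the x axis. Points are libraries and bars are group means of 2. Monocytes are highest for H2-Aa, H2-Ab1, H2-Eb1, Cd74, Ciita and H2-DMa, neutrophils lowest for all genes but H2-Oa, and DDC macrophages highest for Cd86.

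Macrophages of DDC and normal liver were compared to describe the effect of the diet. None of the 10 members was called, and of all genes 0.0252% were called by edgeR, which is 7 genes, with 3 members at an unadjusted p under 0.05 and 660 genes and 0 members called by DESeq2. The members differed by 0.35 to 2.90 with a median of 0.98, where the median of all genes was -0.62. H2-Oa differed by 2.90 ± 0.89 (adjusted p = 0.358), H2-DMb1 by 2.07 ± 0.67 (adjusted p = 0.389) and H2-Eb1 by 1.51 ± 0.55 (adjusted p = 0.453). Cd86 (1.03), Ctss (1.02), Ciita (0.95), H2-DMa (0.77), Cd74 (0.66), H2-Ab1 (0.63) and H2-Aa (0.35) differed by less. For 7 members, all but H2-Aa, H2-Ab1 and Cd74, the spread did not overlap, with both DDC libraries above both normal libraries, as for 23.5% of all genes. Scaling by median of ratios moved the median of all genes to -1.12 turned H2-Aa from 0.35 to -0.13, and moved the higher share of the called genes from 100% to 64.7%.

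DDC macrophages were then compared with the mean of the monocyte groups of the same diet. None of the 10 was called, with 0.731% of all genes called, 5 members at an unadjusted p under 0.05 and 4 members called by DESeq2. Of the called genes 82.8% were higher in macrophages, or 71.5% with median-of-ratios scaling. Ciita differed by -1.56 ± 0.45 (adjusted p = 0.178), H2-Ab1 by -1.31 ± 0.57, H2-Aa by -1.17 ± 0.53 and H2-Eb1 by -1.14 ± 0.50, while Cd86 differed by 0.99 ± 0.53 (adjusted p = 0.872). H2-Oa differed by -1.84 ± 0.77, Cd74 by -0.94 ± 0.59, H2-DMa by -0.74 ± 0.44, H2-DMb1 by -0.55 ± 0.57 and Ctss by -0.25 ± 0.51. Both macrophage libraries lay below all 4 monocyte libraries for 6 of the 10 members, as for 10.8% of all genes. They lay above them for 1 of the 10, Cd86, as for 10.8% of all genes. Of the further class II genes, Ctsd, the lysosomal protease cathepsin D, was higher (1.98 ± 0.42, adjusted p = 0.0361), at 3199 and 2513 CPM against 655 to 803 CPM. Without both T-labelled libraries in the fit 0 of these 13 genes were called higher, so that call was lost. Of 21 interferon gamma response genes 1 was called in the same comparison, Iigp1, an immunity-related GTPase (3.51).

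Neutrophils, again compared with the mean of both monocyte groups, had 8 of 10 members called lower, against 0.436% of all genes. Ciita fell by 3.70 ± 0.51 on the log2 scale (adjusted p = 0.000755), H2-Aa by 3.94 ± 0.62 (adjusted p = 0.00214), H2-Eb1 by 3.71 ± 0.58 (adjusted p = 0.00197), Cd74 by 3.68 ± 0.69 (adjusted p = 0.00837) and H2-Ab1 by 3.61 ± 0.66. H2-DMb1 (-3.35 ± 0.66), H2-DMa (-2.96 ± 0.50) and Ctss (-2.80 ± 0.59) were also lower. H2-Oa (-2.84 ± 0.82, adjusted p = 0.109) and Cd86 (-1.67 ± 0.59, adjusted p = 0.214) missed the threshold. DESeq2 called both (adjusted p = 0.00287 and 0.0226), and Cd86 was also called without the filter on low counts (adjusted p = 0.0302). For all 10 members both neutrophil libraries lay below all 4 monocyte libraries, as for 13.7% of all genes. H2-DMb2 (-2.96 ± 0.55) and Ifi30, a lysosomal thiol reductase (-2.44 ± 0.52), were lower among the further class II genes. The neutrophil libraries held 15300 and 5214 CPM over the 14 macrophage markers and 15460 and 6519 CPM of S100a8, and the part of other cells in their class II level was not tested.

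T-labelled libraries, set against the same monocytes, had 3 members called lower, against 0.4% of all genes. These were H2-Aa (-2.55 ± 0.57, adjusted p = 0.0282), H2-Eb1 (-2.24 ± 0.53, adjusted p = 0.0385) and H2-DMa (-2.25 ± 0.47, adjusted p = 0.0201). H2-DMb1 (-2.32 ± 0.62, adjusted p = 0.0754), Cd74 (-2.28 ± 0.64, adjusted p = 0.0888) and H2-Ab1 (-2.07 ± 0.60, adjusted p = 0.102) missed the threshold. H2-Oa (-1.33 ± 0.75), Ctss (-1.18 ± 0.53) and Ciita (-1.11 ± 0.44) did so too, and Cd86 differed by -0.00 ± 0.54. Without T-labelled replicate 1 none was called, and without T-labelled replicate 2 or any 1 monocyte library 6 were. Mouse T cells are known to carry little class II. The 5289 and 7869 CPM of Cd74 in these libraries stood beside the macrophage marker sums of 15250 and 23630 CPM. On the same list the Ly6C-low monocytes held 16820 and 36360 CPM and the Ly6C-high monocytes 128200 and 49040 CPM. The part of other cells in the Cd74 of the T-labelled libraries was not tested.

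The monocyte groups, which differ in Ly6c2 as labelled (325 and 155 CPM in Ly6C-high, 6.48 and 6.51 CPM in Ly6C-low), had no member called between them. Of all genes 0% were called by edgeR, with 461 genes and 1 member at an unadjusted p under 0.05, and DESeq2 called 36 genes and 0 members. The 10 members differed by -2.59 to 0.89, with a median of -0.23. H2-Oa was the member at an unadjusted p under 0.05, at -2.59 ± 0.86 in Ly6C-high over Ly6C-low cells (95% interval -4.41 to -0.78). Its partner chain H2-Ob stood at 97.3 and 161 CPM in Ly6C-low and 46.6 and 17.5 CPM in Ly6C-high cells. H2-Oa and Ciita were the members whose monocyte groups did not overlap, where 14.4% of all genes had Ly6C-high cells below, and the interval for Ciita was -1.76 to 0.28. Across the 12 immune libraries the genes most like the mean of the chains and Cd74 were Dpy19l1 (Pearson r = 0.959), Tmem176b (0.950), Pld4 (0.950), Ctsh (0.950) and Rps3a2 (0.949), among 10602 genes. Of the other members H2-DMa (0.967) and H2-DMb1 (0.954) followed that mean most and H2-Oa (0.650) least.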

How the data were processed

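Bulk RNA sequencing gave 2 tables of raw gene counts, which the authors deposited as counts per gene and library, 1 for hepatocytes and 1 for immune cells. STAR, HTSeq and DESeq2 and the build mm10 are named in the submitters' processing notes, their versions and the strand setting being not given in the sources used here. Livers were perfused and cells sorted, and TruSeq libraries were made from Trizol RNA, per the labels' protocols. All columns were matched to a sample (0 left over). The entry for an EGFP transgene entered neither library sizes nor tests.

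Each table was fitted whole in R 4.3.3 with edgeR 4.0.16 (TMM, filterByExpr by group, quasi-likelihood F tests), 1 term per group and no other covariate. Spread was pooled over all groups of a table, since many hold only 2 libraries. The filter kept 14339 genes in hepatocytes, where residual degrees of freedom were 8 and edgeR's common biological coefficient of variation was 0.313. It kept 27759 in immune cells, where these were 6 and 1. P-values were Benjamini-Hochberg adjusted over all genes of a comparison, and every adjusted p is from edgeR unless DESeq2 1.42.0 is named. The SE is the absolute log2 fold change divided by the square root of F. Groups of 2 or 3 limit precision more than depth does, and counting floors of 3 counts leave out spread between animals.

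Symbols, coordinates and exon lengths came from GENCODE M21 (GRCm38, the mm10 assembly). The 2 tables were scaled separately, so levels are not compared between them. Members and lists were chosen with earlier results of these data known. The rule named all members in each comparison and, of every other list, up to 4 called genes with the smallest adjusted p, or 2 where none was called. Not every list is printed for every comparison, and the members are given by their range between DDC STAT3KO and DDC and between monocyte groups. Any further gene named, such as Irf1, Rfx5, Ifngr1, Igtp under DDC, Icosl, Calr and H2-Ob, was chosen after its values were seen. A gene of these lists that the rule would name is not reported here. The alternatives were DESeq2, scaling by median of ratios, testing without the low-count filter, the replicate number as a block and each library left out. Leaving out IL-6 replicate 3 with DDC STAT3KO replicate 3, or both T-labelled libraries, was chosen after seeing the data. The code was tested on simulated counts.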

Additional observations from a re-analysis of the deposited data

Results flagged for a closer look

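The difference between STAT3KO and control arms was not the same under the IL-6 plasmid and DDC diet for 7 members, by the interaction test over all 14339 genes in edgeR. The interaction on the log2 scale was 6.70 for H2-Aa, 5.49 for H2-Ab1, 5.91 for H2-Eb1, 6.46 for Cd74, 5.68 for Ciita, 5.63 for H2-DMa and 4.70 for H2-DMb1. In each of the 7 the 3 IL-6 STAT3KO libraries lay above the 3 IL-6 libraries, while the DDC STAT3KO libraries overlapped the DDC libraries. Under DDC diet the STAT3KO and control arms both carry floxed alleles and received an AAV. Under IL-6 only the STAT3KO arm did, and these differences cannot be told apart from the injury model.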

How the results depend on the processing

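Of the members' log2 fold changes under another tool, filter, scaling, block or joint omission, 455 kept direction and side of the threshold, 35 passed it newly, 2 lost it and 18 changed sign. With 1 library left out the numbers were 487, 18, 39 and 40. No result that changed sign was called. In IL-6 STAT3KO against IL-6, 7 members were called under each of these settings and omissions. Depth limits Ciita, Cd86, H2-DMa and H2-DMb1 in GFP hepatocytes, where counts of 9 or fewer stand behind a library's value, and groups of 2 or 3 limit the rest. Omitting 1 library of a pair leaves a lone sample that is assumed to vary like the other groups. The cause of the changes given below was not tested.

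DESeq2 called 1146 genes in IL-6 STAT3KO against GFP (448 with edgeR), 6 members in DDC against GFP (3), 15 genes in DDC STAT3KO against DDC (0) and 1881 in the interaction (1187). In immune cells it called 660 genes between macrophage groups (7), 766 genes and 4 members in macrophages against monocytes (203 and 0), 2228 genes in neutrophils (464), 2373 genes and 6 members in T-labelled cells (460 and 3) and 36 genes between monocyte groups (0). H2-Aa between macrophage groups was -0.13 and Cd86 in T-labelled cells 0.12, both with DESeq2 and with median-of-ratios factors in edgeR. Those factors gave 17 genes between macrophage groups, 818 in neutrophils, 6 members in T-labelled cells and 1 gene between monocyte groups.

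Without the filter on low counts, 240 genes and 2 members were called between macrophage groups, 554 genes and 5 members in macrophages against monocytes, 1310 genes in neutrophils, 1235 genes and 7 members in T-labelled cells and 74 genes between monocyte groups. Cd86 was then 0.058 in T-labelled cells and H2-DMb1 -0.0017 between monocyte groups. Without both T-labelled libraries 698 genes were called in neutrophils.

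Whether replicate numbers pair the libraries was not settled. Deviations of same-numbered libraries from their group means correlated at -0.159 to 0.318 in hepatocytes (4 of 23 pairs over 0.1). Those of differently numbered hepatocyte libraries correlated at -0.348 to 0.321. In immune cells same-numbered libraries correlated at -0.126 to 0.135 (2 of 30 over 0.1). There the groups hold 2 libraries, whose deviations mirror each other, so these values can neither show nor exclude pairing. With the replicate number as a block, H2-Eb1 was 0.14 in IL-6 against GFP, and H2-Ab1 was 0.052 and Cd74 0.012 in DDC STAT3KO against DDC. The block called 26 genes between macrophage groups and 2 between monocyte groups.

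Without IL-6 replicate 3 and DDC STAT3KO replicate 3, 1175 genes were called in IL-6 STAT3KO against GFP, 4061 genes and 7 members in DDC against GFP and 2163 genes in the interaction. H2-Eb1 was then 0.43 in IL-6 against GFP and Ctss -0.12 in the interaction. In DDC STAT3KO against DDC the differences became 0.37 for H2-Aa, 0.43 for H2-Ab1, 0.29 for H2-Eb1, 0.44 for Cd74, 0.10 for Ciita, 0.033 for H2-DMb1 and 0.12 for Ctss.

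With 1 library left out, genes called ran from 1651 to 3450 in IL-6 against GFP (3719 with all), 89 to 434 in IL-6 STAT3KO against GFP, 607 to 1220 in DDC against GFP (2674), 459 to 1611 in the interaction and 0 to 1 in DDC STAT3KO against DDC. They ran from 35 to 79 between macrophage groups, 182 to 419 in macrophages against monocytes, 502 to 3323 in neutrophils, 572 to 2335 in T-labelled cells and 6 to 54 between monocyte groups. Members called ran from 0 to 1, 0 to 7, 0 to 1 and 4 to 7 in the first 4 of these, 0 to 1 in macrophages against monocytes and 0 to 6 in T-labelled cells.

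Members whose sign changed on such an omission had these ranges. In IL-6 against GFP they were -0.40 to 0.62 for H2-Aa, -0.35 to 0.74 for H2-Ab1 and -0.77 to 0.43 for H2-Eb1, and in IL-6 STAT3KO against IL-6 -0.28 to 0.66 for Ctss. In DDC STAT3KO against DDC they were -1.20 to 0.65 for H2-Aa, -0.84 to 0.70 for H2-Ab1, -1.28 to 0.35 for H2-Eb1, -1.02 to 0.56 for Cd74, -1.64 to 0.29 for Ciita, -1.63 to 1.17 for H2-DMa, -1.06 to 0.33 for H2-DMb1 and -0.94 to 0.11 for Ctss. Between macrophage groups they were -0.14 to 0.61 for H2-Aa and -0.019 to 0.87 for H2-Ab1, in macrophages against monocytes -0.52 to 0.11 for Ctss, and in T-labelled cells -0.13 to 0.17 for Cd86. Between monocyte groups they were -0.74 to 0.49 for H2-Aa, -0.91 to 0.093 for H2-Ab1, -0.73 to 0.50 for Cd74, -0.26 to 0.53 for H2-DMa, -0.29 to 0.44 for H2-DMb1 and -0.16 to 0.36 for Cd86.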
